A study of Mus musculus with 99 samples.

Results

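The 48 autophagy genes described here are the rows of the mouse count table named for the start of autophagy, the conjugation machinery, the ATG8 proteins, cargo and mitochondrial receptors and the lysosomal regulators. All 48 were found among the 55291 gene symbols of the table. They were followed in 99 cells from C57BL/6 mouse cochleae, each picked singly by hand for tdTomato fluorescence and sequenced from full-length cDNA. One group held 32 wild-type outer hair cells (OHCs) at postnatal day 30, from Slc26a5-CreER/+; Ai9/+ mice. The other held 67 converted inner hair cells (cIHCs) at postnatal day 42, from Slc26a5-CreER/+; Rosa26Tbx2/+ mice, which are OHCs made to express the transcription factor Tbx2 and, per the labels, turning into inner hair cells (IHCs). Both groups carry 1 Slc26a5-CreER allele, an inducible Cre driven from the gene of prestin, the OHC motor protein. The Ai9 reporter allele is named for the OHCs alone and the Tbx2 allele for the cIHCs alone, so age and genotype differ together and cannot be told apart. No title names an endogenous IHC or an OHC of day 42, but the protocol text, the same for every cell, speaks of picked endogenous IHCs and of iOHCs. The titles were followed here.

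Autophagy encloses cytoplasm in a double membrane, the autophagosome, and delivers it to the lysosome. The ULK1 complex starts the process, a phosphatidylinositol 3-kinase complex marks the membrane, ATG9 and ATG2 supply lipid, and an enzyme cascade resembling ubiquitin conjugation attaches small ATG8 proteins to the membrane. Cargo receptors bind ATG8 proteins and carry aggregates or mitochondria into the autophagosome. Hair cells are not replaced in the adult mammalian cochlea, and turnover of proteins and mitochondria by autophagy is studied there for its part in their survival.

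The 5 ATG8 genes are the members the results turn on most, and the ends of their coding sequences are shown because the protease ATG4 trims each protein there, just behind the glycine that is then joined to lipid. Each line gives the last 30 coding bases, stop codon included, read on the plus strand from GENCODE M21 (build GRCm38, the same assembly as mm10), with that glycine codon in capitals.

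Map1lc3a, chr2:155277608-155277637: tacgcctcccaagaaaccttcGGCttctga
Map1lc3b, chr8:121596741-121596770: gagacattcGGGacagcaatggctgtgtaa
Gabarap, chr11:69994495-69994524: tacagtgatgaaagcgtctatGGTctgtga
Gabarapl1, chr6:129541138-129541167: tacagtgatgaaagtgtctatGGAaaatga
Gabarapl2, chr8:111952376-111952405: tacagcggagagaacacttttGGCttctga

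The glycine is codon 120 in the 2 LC3 genes (Map1lc3a, Map1lc3b) and codon 116 in the 3 GABARAP genes, with 5 codons left before the stop in Map1lc3b and 1 in each of the other four. Over aligned coding bases the 5 genes share between 67.0% (Map1lc3b and Gabarapl1) and 78.8% (Map1lc3a and Map1lc3b). The longest exact run shared by any pair is 17 bases, between Gabarap and Gabarapl1.

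Each GEO sample is 1 cell and no label names an animal, so each group counts as 1 sample and no difference was tested. Levels are CPM, read counts scaled to a total of 1000000, and a pooled level is the sum over the cells of a group. A difference is the log2 ratio of pooled CPM, cIHC over OHC, with a 95% interval for the error of counting alone. Because the cDNA was amplified and carries no molecular tags, reads are not separate molecules, and the spread over cells is far wider than that interval. A level below is given as lowest, median and highest cell, and the share of cell pairs is how often, out of every cIHC set against every OHC, the cIHC had the higher level. Totals per cell ran from 5656512 to 9287413 reads in OHCs and from 4677682 to 13792672 in cIHCs. The median cell had reads of 6068.5 genes among OHCs and of 8546 among cIHCs. The 5 OHC markers had a summed level of 50765 CPM among OHCs and 301 CPM among cIHCs, and the 5 IHC markers of 621 and 5799 CPM. Xist was at or above 10 CPM in 4 OHCs and 55 cIHCs, and Y-linked genes in 24 OHCs and 12 cIHCs, so the sex read from the RNA also moved with the group. Every ratio below among cells with Xist reads rests on those 4 OHCs. Summed supporting cell markers were at 39.5 CPM in OHCs and 29.8 CPM in cIHCs (2 of 10 at 0 in each group), and glia markers at 13.7 and 8.93 CPM. Blood and macrophage markers were at 4.27 and 53.3 CPM (in cIHCs C1qa, Lyz2 and Tyrobp were at 0), and dissociation genes at 1069 and 1895 CPM; the part of these in the results was not tested.

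The summed level of the autophagy genes was close in OHCs and converted cells, and single genes differed in both directions. Their pooled sum was 5166 CPM for OHCs and 5481 CPM for cIHCs, with cells between 3051 and 6826 CPM (median 5133) in OHCs and between 3932 and 8101 CPM (median 5231) in cIHCs. The 2 groups overlapped over most of that range, and the cIHC was higher in 58.7% of cell pairs. A ratio was read for the 44 members that reached 10 CPM in OHCs, in cIHCs or in both, while Atg9b, Wipi1, Optn and Tfeb stayed under that level. Their median log2 ratio was 0.04, against 0.25 over all 10041 genes at that level.

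Of these 44, 9 were at least 2-fold higher in cIHCs (20.5%), which is below the 26.3% of all genes. Another 4 were at least 2-fold lower (9.09%), also below the 14.3% of all genes. The higher genes were Atg7, Atg12, Atg10, Lamp2, Wipi2, Bnip3, Map1lc3a, Map1lc3b and Calcoco1. The lower ones were Gabarapl1, Pink1, Rptor and Atg16l1. In no member were the cells of the groups fully apart, as in 0.169% of all genes. With TMM factors, which move the median of all genes from 0.25 to 0.06, the split was 7 higher to 6 lower, with Map1lc3b and Calcoco1 under 2-fold and Atg9a and Bnip3l past it on the lower side.

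**Figure D1:**
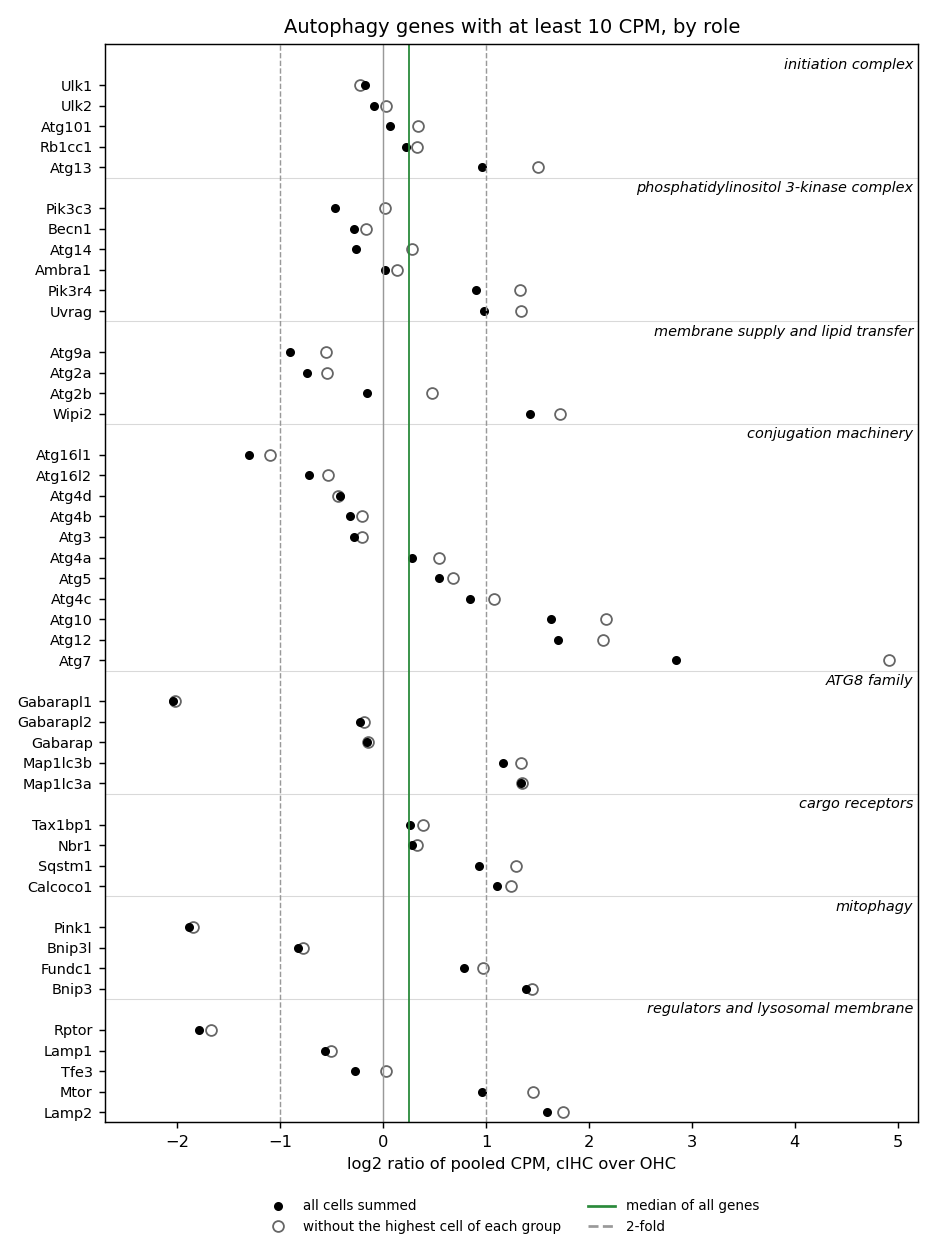
Log2 ratio of pooled CPM, cIHC over OHC, for the 44 autophagy genes with at least 10 CPM, grouped by role; filled points use all cells, open points leave out the highest cell of each gene in each group, dashed lines mark 2-fold and the green line the median of all genes (0.25). Most members lie between the dashed lines, Gabarapl1 is the lowest at -2.04, and Atg7 is the highest at 2.85 and moves most, to 4.91, without its highest cell.

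The ATG8 family kept its summed level and differed in make-up. ATG8 proteins coat the autophagosome and bind the receptors; the LC3 branch is known mainly for membrane growth and the GABARAP branch for late steps and for binding the ULK1 complex. Together the 5 genes reached 1860 CPM in the OHC pool and 1914 CPM in the cIHC pool, and the cIHC had the higher sum in 51.4% of pairs.

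Map1lc3a, which encodes LC3A, had 0, 205 and 489.7 CPM in OHCs and 121, 422 and 1598 CPM in cIHCs. Only 1 OHC lay above the cIHC median and 26 cIHCs lay above every OHC, yet the ranges overlapped. Its pooled level was 203 CPM against 513 CPM, a log2 ratio of 1.34 (1.32 to 1.35), and the cIHC was higher in 89.5% of pairs. Map1lc3b, which encodes LC3B, the protein most used to follow autophagosomes, had 0, 126 and 727 CPM in OHCs and 21.2, 273 and 1084 CPM in cIHCs. All 67 cIHCs and 25 of 32 OHCs held reads of it. Its log2 ratio was 1.17 (1.15 to 1.18), from 152 to 341 CPM, and it was 0.98 with TMM factors and 0.62 among cells with Xist reads.

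Gabarapl1, a GABARAP gene that is highly expressed in brain, went the other way. It had 25.2, 387 and 932 CPM in OHCs and 0, 96.5 and 326 CPM in cIHCs. No cIHC reached the OHC median, 17 OHCs lay above every cIHC, and 31 of 32 OHCs lay above the cIHC median. Pooled, it stood at 416 CPM for OHCs and 101 CPM for cIHCs (log2 ratio -2.04, -2.06 to -2.03), and the cIHC was higher in 7.79% of pairs. It overlaps the gene 1700101I11Rik on the other strand over 28.3% of its exon bases, and since the strand setting of the counting is not given, reads there could belong to either gene.

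The other GABARAP genes barely differed. Gabarap had 146, 643 and 1058 CPM in OHCs and 182, 566 and 1047 CPM in cIHCs (log2 ratio -0.16, -0.17 to -0.15). Gabarapl2, also known as GATE-16, had 82.3, 469.9 and 946 CPM in OHCs and 150.5, 395 and 689.9 CPM in cIHCs (log2 ratio -0.22, -0.23 to -0.21). In both the groups lay over each other, and the cIHC was higher in 39.9% and 38.6% of pairs.

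**Figure D2:**
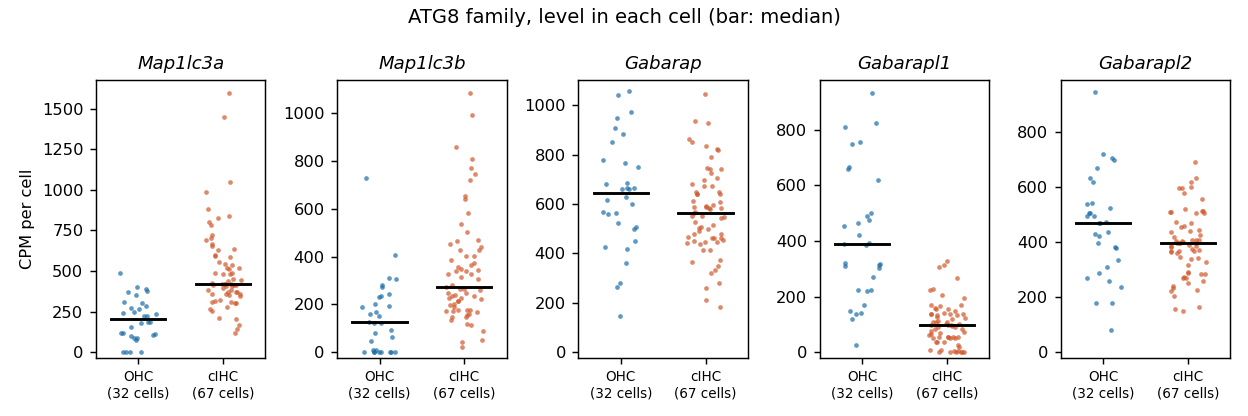
CPM of the 5 ATG8 genes in each of 32 OHCs (blue) and 67 cIHCs (orange), on linear axes that differ between panels; each point is 1 cell and the bar is the median. Map1lc3a and Map1lc3b sit higher in cIHCs (medians 422 and 273 CPM against 205 and 126 CPM), Gabarapl1 sits lower (96.5 against 387 CPM), and Gabarap and Gabarapl2 overlap throughout.

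A share of the family's reads does not depend on how the groups were scaled. The 2 LC3 genes together took 19.1% of ATG8 reads in OHCs and 44.6% in cIHCs. Over cells that share was 0% to 37.7% (median 18.03%) in OHCs and 19.8% to 77.2% (median 42.1%) in cIHCs, so 44 of 67 cIHCs lay above every OHC and 20 of 32 OHCs below every cIHC. Gabarapl1 took 22.4% in OHCs and 5.28% in cIHCs, with medians of 21.1% and 4.73%. Gabarap took 33.9% and 29.5%, and Gabarapl2 24.7% and 20.6%. Within the LC3 pair the make-up was alike, with Map1lc3a at 57.2% of the pair's reads in OHCs and 60.1% in cIHCs.

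**Figure D3:**
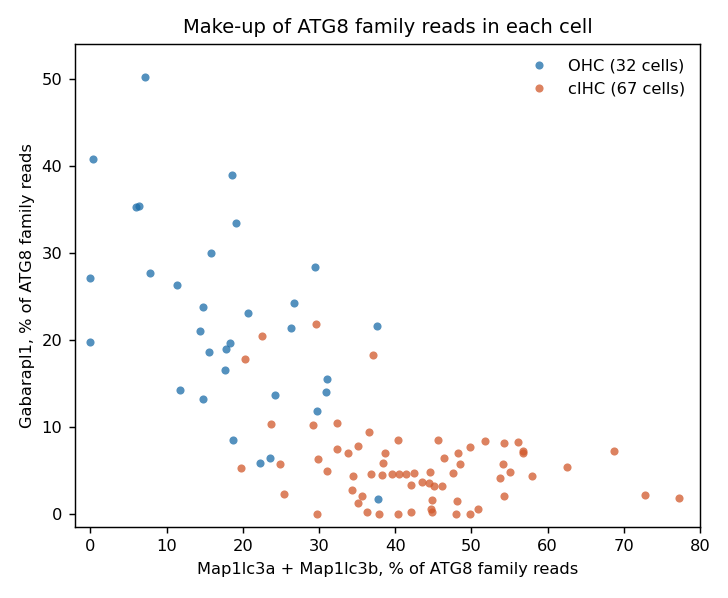
Share of ATG8 family reads taken by Gabarapl1 (vertical axis, %) against the share taken by Map1lc3a and Map1lc3b together (horizontal axis, %), 1 point per cell, OHCs in blue and cIHCs in orange. OHCs lie to the upper left and cIHCs to the lower right, with a zone of overlap between 19.8% and 37.7% on the horizontal axis; both shares have the same denominator, so they are not independent.

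The order of the genes also differed when levels were set per kilobase of the longest principal transcript, the scale on which genes can be compared. In OHCs the highest pooled levels per kb were those of Gabarap (466 CPM per kb), Gabarapl2 (274), Gabarapl1 (229), Lamp1 (215), Map1lc3a (182) and Bnip3l (178). In cIHCs they were those of Map1lc3a (461 CPM per kb), Gabarap (418), Gabarapl2 (235), Lamp1 (145), Map1lc3b (135), Lamp2 (113) and Bnip3 (106), with Bnip3l next at 99.8. Gabarapl1 stood at 55.5 CPM per kb there. Cell by cell, Map1lc3a exceeded Gabarapl1 per kb in 15 of 32 OHCs and in 66 of 67 cIHCs, and Map1lc3b exceeded it in 2 OHCs and 57 cIHCs. Neighbours in these orders do not all differ beyond the cells' spread, since Map1lc3a exceeded Gabarap in 32 of 67 cIHCs.

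The conjugation machinery, 11 genes that process ATG8 proteins and join them to lipid, held both higher and lower members. Of these, 3 were at least 2-fold higher (27.3%, against 26.3% of all genes), 1 was at least 2-fold lower (9.09%, against 14.3%) and the median log2 ratio was 0.28, so the counts were near those of all genes. The 3 higher genes, Atg7, Atg10 and Atg12, act in one step: the E1-like enzyme ATG7 and the E2-like enzyme ATG10 attach the ubiquitin-like protein ATG12 to ATG5. Atg12 had 0, 0.061 and 473 CPM in OHCs and 0.12, 156 and 531 CPM in cIHCs. It had reads in 16 of 32 OHCs and in all 67 cIHCs, and the pooled levels of 51.3 and 167 CPM gave a log2 ratio of 1.70 (1.67 to 1.73).

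Atg10 (chr13:90935356-91223968, minus strand) had reads in 3 of 32 OHCs, at 179.6, 186 and 266 CPM, and in 51 of 67 cIHCs, at up to 226 CPM with a median of 42.7 CPM. OHCs were thus at 0 or high, and cIHCs spread between. The pooled log2 ratio was 1.63 (1.58 to 1.67), from 17.2 to 53.2 CPM, with the cIHC higher in 69.2% of pairs, the OHC in 9.19%, and the rest tied at 0. Atg7 (chr6:114643097-114860614, plus strand) had a median of 0 in both groups, with a highest cell of 76.5 CPM in OHCs and 118 CPM in cIHCs. Reads were found in 6 OHCs and 32 cIHCs, and 78.5% of the OHC counts lay in 1 cell. The log2 ratio of 2.85 (2.74 to 2.96), from 2.90 to 20.9 CPM, therefore rests on that cell for its size and was 4.91 when the highest cell of either group was left out.

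Atg5, the partner to which ATG12 is joined, was at 54.1 and 78.9 CPM (log2 ratio 0.54). Atg16l1 (chr1:87755870-87792428, plus strand), which brings the ATG12-ATG5 pair to the membrane, had 0, 0 and 556 CPM in OHCs and 0, 0.132 and 191 CPM in cIHCs. Reads were found in 15 of 32 OHCs, of which 10 were at or above 10 CPM and 6 lay above every cIHC. The pooled levels were 71.4 and 28.9 CPM, a log2 ratio of -1.31 (-1.34 to -1.27), but the cIHC was higher in 35.6% of pairs, the OHC in 38.2%, and the rest were tied, and the ratio was -0.89 without the cells with the fewest genes. Its relative Atg16l2 had a log2 ratio of -0.72. Atg3, the E2-like enzyme for ATG8 proteins, had one of -0.28. The 4 ATG4 proteases, which trim and recycle ATG8 proteins, ran from -0.42 (Atg4d) to 0.84 (Atg4c).

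No gene of the initiation complex (Ulk1, Ulk2, Rb1cc1, Atg13, Atg101) and none of the phosphatidylinositol 3-kinase complex (Becn1, Pik3c3, Pik3r4, Atg14, Uvrag, Ambra1) was past 2-fold in either direction. Of all genes, 26.3% were past it on the higher side and 14.3% on the lower, and these sets hold only 5 and 6 genes. The medians were 0.06 and -0.12, against 0.25 over all genes. The kinase genes Ulk1 and Ulk2 had log2 ratios of -0.17 and -0.09, and Rb1cc1, the scaffold FIP200, had 0.22. Atg13, the adaptor of the kinase, stood at 0.96, from 39.3 to 76.7 CPM; 36.1% of its OHC counts lay in 1 cell, and the ratio was 1.51 when the highest cell of either group was left out. Becn1, the scaffold Beclin 1, was at 142 and 117 CPM (log2 ratio -0.28), and Cntd1 overlaps 43.9% of its exon bases on the other strand. Uvrag and Pik3r4 stood at 0.98 and 0.90, or 1.34 and 1.33 with the highest cells left out.

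Among the 4 genes at 10 CPM that supply membrane and lipid, only Wipi2 was past 2-fold, on the higher side (25%, against 26.3% of all genes). Its protein binds the lipid made by the kinase complex and recruits ATG16L1. Wipi2 (chr5:142627698-142670588, plus strand) had 0, 0 and 191 CPM in OHCs and 0, 43.8 and 237 CPM in cIHCs, with reads in 11 of 32 and 54 of 67 cells. The log2 ratio was 1.43 (1.38 to 1.47), from 21.8 to 58.6 CPM, and 0.77 among cells with Y-linked reads. Atg9a, the lipid scramblase of the small vesicles that seed the autophagosome, had -0.91, and the lipid transfer genes Atg2a and Atg2b had -0.74 and -0.16. On the same strand, Gm29253 overlaps 31.8% of the exon bases of Atg9a. Atg9b had reads in 1 OHC and 2 cIHCs, and Wipi1 in 7 OHCs and 23 cIHCs.

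Of the 4 cargo receptors at 10 CPM, 1 was at least 2-fold higher (25%, against 26.3% of all genes) and 0 lower (against 14.3%). All 4 had ratios above 0, but those of Nbr1 and Tax1bp1 were near the 0.25 of all genes. Sqstm1 encodes p62, which links ubiquitin-tagged cargo to ATG8 proteins. It had 0, 0.369 and 586 CPM in OHCs and 0, 154 and 438 CPM in cIHCs, with a log2 ratio of 0.93 (0.91 to 0.95) from 82.8 to 158 CPM. That is under 2-fold, although 59 of 67 cIHCs lay above the OHC median. The ratio of Sqstm1 was 0.15 among cells with Xist reads and 1.54 among cells with Y-linked reads. The gene Mrnip overlaps 17.3% of the exon bases of Sqstm1. Calcoco1 (chr15:102706777-102722178, minus strand), a receptor for the endoplasmic reticulum, had 0, 22.5 and 181 CPM in OHCs and 0, 58.3 and 304 CPM in cIHCs. Its log2 ratio was 1.11 (1.08 to 1.14), from 35.5 to 76.7 CPM, and 0.92 with TMM factors.

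Nbr1, a receptor related to p62, had reads in every cell, with 0.229, 93.8 and 427 CPM in OHCs and 0.672, 156 and 397 CPM in cIHCs. Its log2 ratio was 0.28 (0.26 to 0.30), and -0.37 among cells with Xist reads. Tax1bp1, a ubiquitin-binding receptor, had 0, 222 and 874 CPM in OHCs and 43.8, 288 and 670 CPM in cIHCs, with a ratio of 0.26 (0.25 to 0.27). Optn, which encodes optineurin, had 0 reads in all 99 cells. With 3 of n cells as the limit for a count of 0, and for counting error only, this allows a share of cells with reads of up to 9.38% in OHCs and 4.48% in cIHCs. The annotation behind the counts is not given, and whether the lack of Optn reads comes from the cells or from the counting was not tested.

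The mitophagy genes, whose products mark or tether mitochondria for removal, differed from each other in direction. Bnip3 and Bnip3l encode related receptors in the outer mitochondrial membrane, while PINK1 is the kinase that recruits Parkin to damaged mitochondria. Bnip3 (chr7:138890836-138909519, minus strand) had 0, 74.1 and 255 CPM in OHCs and 0, 147 and 600.4 CPM in cIHCs. The pooled log2 ratio was 1.39 (1.37 to 1.41), from 71.0 to 186 CPM, with 14 cIHCs above every OHC. The gene Gm45507 overlaps 22.3% of its exon bases. The ratio was 2.66 among cells with Xist reads and 0.49 among cells with Y-linked reads. The first rests on 4 OHCs, with a median of 0 and a highest cell of 112 CPM. No animal is named, so sex and mouse cannot be told apart in this.

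Bnip3l, also called NIX, had 28.6, 486 and 1389 CPM in OHCs and 83.3, 316 and 633 CPM in cIHCs. Its log2 ratio was -0.83 (-0.84 to -0.82), from 575 to 323 CPM, with 13 OHCs above every cIHC. Bnip3 thus took 10.98% of the pair's reads in OHCs and 36.5% in cIHCs. Over cells that share had a median of 13.2% (0% to 37.4%) in OHCs and 36.9% (0% to 68.9%) in cIHCs, and 32 of 67 cIHCs lay above every OHC. Per kb of transcript, Bnip3 exceeded Bnip3l in 2 of 32 OHCs and 37 of 67 cIHCs.

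Pink1 (chr4:138313409-138326307, minus strand) had 0, 153 and 631 CPM in OHCs and 0, 32.0 and 217 CPM in cIHCs. Reads were found in 31 of 32 OHCs and 60 of 67 cIHCs, but 24 OHCs lay above the cIHC median and only 2 cIHCs above the OHC median. The pooled levels were 168 and 45.4 CPM, a log2 ratio of -1.89 (-1.91 to -1.87), which was -1.69 among cells with Y-linked reads and -0.90 among cells with Xist reads. Fundc1, an X-linked receptor for mitochondria, had 0, 0 and 459.6 CPM in OHCs and 0, 117 and 442 CPM in cIHCs (log2 ratio 0.79, 0.76 to 0.81). It had reads in 14 of 32 OHCs and 61 of 67 cIHCs. Its ratio was 0.15 among cells with Xist reads and 1.21 among cells with Y-linked reads. Mitochondrially encoded reads were at a median of 6.68% per OHC and 3.47% per cIHC.

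At the lysosome, the 2 LAMP genes, for the main glycoproteins of its membrane, lay in opposite directions. Lamp2 (chrX:38401357-38456454, minus strand), one of whose isoforms is the receptor of chaperone-mediated autophagy, had 0, 38.5 and 709.7 CPM in OHCs and 23.8, 348 and 1533 CPM in cIHCs. All but 1 of the 67 cIHCs lay above the OHC median. The log2 ratio was 1.59 (1.58 to 1.61), from 134 to 406 CPM, and Lamp2 is X-linked: the ratio was 4.25 among cells with Xist reads and 1.65 among cells with Y-linked reads. Lamp1 had 14.2, 472 and 1348 CPM in OHCs and 64.01, 317 and 753 CPM in cIHCs (log2 ratio -0.57, -0.58 to -0.56). Lamp2 took 21.9% of the pair's reads in OHCs and 55.6% in cIHCs, with medians over cells of 9.99% and 54.6%.

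mTOR is the kinase that holds autophagy back when nutrients are plentiful, and raptor, the product of Rptor, is the subunit that brings it its substrates. Rptor (chr11:119602905-119899576, plus strand) had 0, 4.30 and 381 CPM in OHCs and 0, 1.11 and 127 CPM in cIHCs. Its pooled levels were 60.5 and 17.5 CPM, a log2 ratio of -1.79 (-1.82 to -1.75). The medians of both groups were low, 15 of 32 OHCs were at or above 10 CPM, and 5 lay above every cIHC. The cIHC was higher in 33.3% of pairs and the OHC in 50.3%. Mtor had 0, 0 and 210.3 CPM in OHCs and 0, 30.5 and 145 CPM in cIHCs. Its log2 ratio of 0.96 (0.91 to 1.00) was -0.54 among cells with Xist reads and 1.90 among cells with Y-linked reads. Tfe3, a transcription factor of lysosomal and autophagy genes, was at 26.5 and 21.9 CPM. Its relative Tfeb had reads in 1 OHC and 6 cIHCs.

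**Figure D4:**
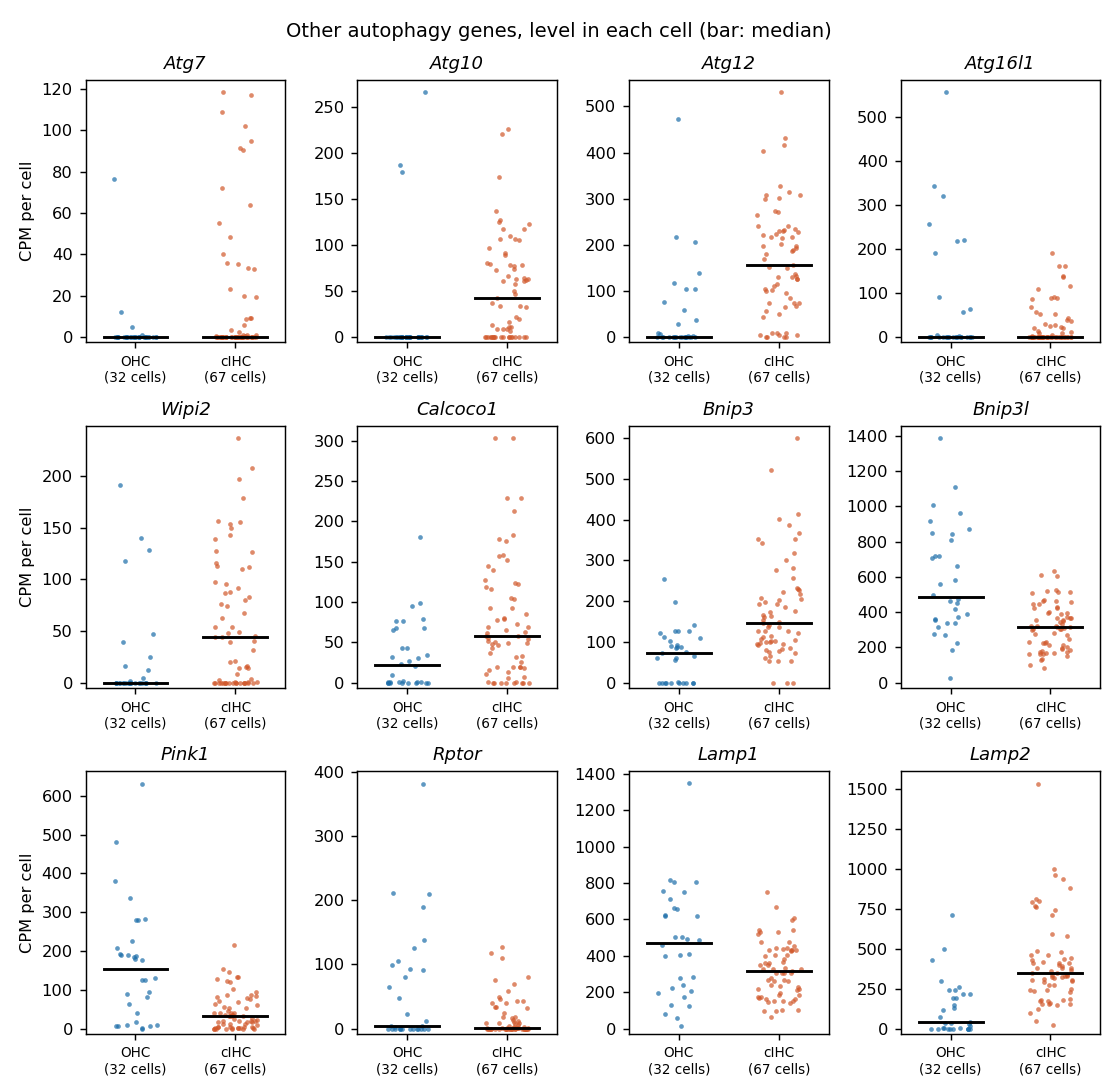
CPM of 12 autophagy genes in each of 32 OHCs (blue) and 67 cIHCs (orange), on linear axes that differ between panels; each point is 1 cell and the bar is the median. Bnip3 and Bnip3l, and Lamp2 and Lamp1, lie in opposite directions, Atg10 has reads in 3 OHCs and 51 cIHCs, and 10 and 15 of the OHCs are at or above 10 CPM for Atg16l1 and Rptor, over medians of 0 and 4.30 CPM.

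Most members had reads in more of the converted cells. A median OHC had reads of 26 of the 48 genes (range 17 to 33) and a median cIHC of 35 (25 to 44). After thinning each cell to 5770000 reads, which leaves out 3 OHCs and 1 cIHC, the medians were 25 and 35. Of the 44 members at 10 CPM, 37 had reads in a larger share of thinned cIHCs than OHCs, 4 in an equal share, and 3 in a smaller one (Ulk2, Gabarapl1 and Pink1). This held also where the pooled level was alike: of 18 members with log2 ratios within 0.5 of 0, 15 had reads in more of the cIHCs, and in 14 the highest single cell was an OHC. Atg101, a subunit of the ULK1 complex, shows the pattern, with pooled levels of 114 and 119 CPM, reads in 16 of 32 OHCs and 62 of 67 cIHCs, and highest cells of 769 and 333 CPM.

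Reads in more of the cIHCs were also seen over the whole table. After thinning, the median cell had reads of 5905 genes among OHCs and of 8318.5 among cIHCs. The 1303 genes with 10 to 100 CPM and log2 ratios within 0.25 of 0 had reads in 49.97% of OHCs and 71.0% of cIHCs on average. In 20 of the 44 members 1 cell held over 20% of the OHC counts, and in 1 member 1 cell did so among the cIHCs, which are more numerous. For this and for the counts of 37, 15 and 14 members, no share over all genes was worked out. They are therefore not read as particular to the autophagy genes. The number of genes with reads per cell moved with the group, and its part in these shares was not tested.

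**Figure D5:**
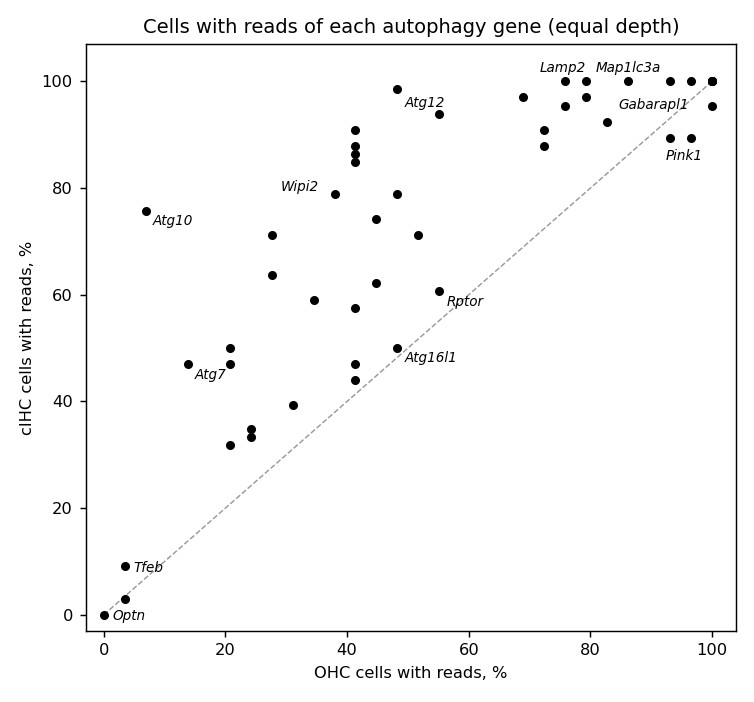
Percentage of cells with at least 1 read of each of the 48 autophagy genes after thinning to equal depth, OHCs (29 cells) on the horizontal and cIHCs (66 cells) on the vertical axis; the dashed line marks equal shares. Most genes lie above the line, Atg10 and Atg12 far above it, and Gabarapl1 and Pink1 below it.

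Correlations of levels from cell to cell were weak. Over the 190 pairs of the 20 named members, the median Spearman correlation was 0.02 in 32 OHCs and 0.02 in 67 cIHCs, with values between -0.49 and 0.47 in OHCs and between -0.40 and 0.39 in cIHCs. These are descriptions over cells that differ in depth, and all genes of a cell were read from the same sample. Against the level of Tbx2 in cIHCs, the 20 correlations ran from -0.33 (Calcoco1) to 0.41 (Bnip3), with a median of 0.15. Bnip3 also had the highest correlation with the total count (0.52) and with the number of genes with reads (0.41) there.

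Splitting cells by the sex read from the RNA changed the sign of none of the 13 members past 2-fold, which were chosen in the same cells. Atg10 and Wipi2 had 0 reads in the 4 OHCs with Xist reads, which puts their ratios at 8.91 and 9.22 or more, set against a floor of 3 counts over those cells. Gabarapl1 was at -1.66 and -1.98 in cells with Xist and with Y-linked reads, Map1lc3a at 1.35 and 1.09, Atg12 at 2.68 and 1.57, and Rptor at -2.25 and -2.83. Among cells with Xist reads, 18 members were at least 2-fold higher (40.9%, against 40.7% of all genes) and 4 lower (9.09%, against 21.4%). Among cells with Y-linked reads, 13 were higher (29.5%, against 28.5%) and 8 lower (18.2%, against 20.5%). Both of these shares, and the higher share among cells with Xist reads, were near those of all genes. The lower share among cells with Xist reads was below that of all genes.

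The other genes of the route to the lysosome were read from lists that hold no member. Of 20 genes for autophagosome maturation and fusion, 19 were at 10 CPM, 6 were at least 2-fold higher (31.6%, against 26.3% of all genes) and 0 lower (against 14.3%), with a median log2 ratio of 0.53 against 0.25 over all genes. Among the 6, Vps39 and Vps41, subunits of the HOPS complex that tethers vesicles to lysosomes, had log2 ratios of 1.55 (22.97 to 67.3 CPM) and 1.02 (118 to 240 CPM). The summed level of this list had cell medians of 895 and 1305 CPM, with the cIHC higher in 83.9% of pairs.

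Of 21 lysosomal hydrolases and membrane proteins, 8 were at least 2-fold higher (38.1%, against 26.3% of all genes) and 1 lower (4.76%, against 14.3%), and the median of 0.21 was near the 0.25 of all genes. Tpp1, a peptidase, had a ratio of 1.37 and Ctsl, cathepsin L, one of 1.15. Of 14 subunits of the V-ATPase, the proton pump of the lysosome, 2 were just past 2-fold (14.3%, against 26.3%), Atp6v1c1 (1.02) and Atp6v1d (1.01), and the median was 0.14.

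Of 28 genes of mTORC1 and AMPK nutrient signalling, 24 were at 10 CPM, 3 were higher (12.5%, against 26.3%) and 2 lower (8.33%, against 14.3%), and the median was 0.05. Sesn3 and Nprl2, for a sestrin and a subunit of GATOR1, both known to restrain mTORC1, had ratios of 2.80 (8.25 to 57.4 CPM) and 1.52 (61.1 to 175 CPM), while Sesn1, another sestrin, had -1.49 (59.6 to 21.2 CPM). Of 14 other genes of selective autophagy, 11 were at 10 CPM. Only Phb2, an inner-membrane mitophagy receptor, was past 2-fold, at 1.51 (9.09%, against 26.3%).

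Promoters were searched for CACGTG, the core of the site bound by TFEB and TFE3, which reads the same on both strands. RefSeq (GRCm38.p6) gave a promoter of 250 bases before to 50 after the start for 41 members, and 6 of them (14.6%) held CACGTG, against 8.09% of 27025 genes. The longer form TCACGTGA, which contains it, was in 1 of 41 (2.44%), against 1.12%. The 6 were Atg3, Atg5, Atg7, Atg14, Bnip3 and Lamp1, of which 2 were at least 2-fold higher in cIHCs and 0 lower. Of all genes, 26.3% were higher and 14.3% lower, and with only 6 genes these counts are not read as tied to the motif. By comparison 7 of 16 lysosomal promoters held CACGTG. Windows of 30 bases are printed for the 2 higher members and for Lamp1, which has 4 matches in 1 promoter, with the match in capitals and read 5′ to 3′ on the gene's strand. Starts are those of RefSeq, and that of Atg7 lies inside the gene span given above and not at its edge.

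Atg7, 132 bases before the start: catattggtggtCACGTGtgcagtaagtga
Bnip3, 108 bases before the start: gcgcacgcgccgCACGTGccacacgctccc
Lamp1, 61 bases before the start: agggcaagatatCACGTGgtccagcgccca

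Lamp1, with 4 matches, had a log2 ratio of -0.57, and Bnip3, with 1, had 1.39. A match describes the sequence and shows no binding.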

How the data were processed

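The deposited table holds counts per gene symbol and cell, taken as unnormalised because they are whole numbers with unequal totals. HISAT2 2.2.1, StringTie 2.2.1, featureCounts 2.0.1 and build mm10 were used per the submitters' processing notes, while their settings, the annotation and strand are not given in the sources used here. Each column was assigned to a cell and group by its title. There were 0 columns of no sample, 0 rows without a gene name and 0 identical cells, and no cell was left out.

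Counts were summed per group and scaled to CPM by the group's total. Ratios carry exact conditional binomial intervals at 95%, and where a group had no read, 3 counts over the group served as a floor. Members and lists were chosen with earlier results of these data known. Named are members at 2-fold and at least 10 CPM in 1 or both groups, all ATG8, cargo receptor and mitophagy genes, and from each other list up to 4 genes per direction at 50 CPM; further members are given in short, and the values of 2 lysosomal genes are not reported here. Gene positions, transcript lengths and overlaps came from GENCODE M21 (96.4% of the symbols matched), which may differ from the authors' annotation.

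Alternatives took the mean or the median CPM over cells, TMM factors (edgeR 4.0.16 in R 4.3.3) or median-of-ratios scaling, totals without mitochondrial or the 10 most abundant genes, leaving out the highest cell or the 20% of cells with the fewest genes, cells with Xist or Y-linked reads, thinning, other minimum levels and 1.5-fold. Leaving out the 6 OHCs and 4 cIHCs with 100 CPM or more of supporting cell and glia markers was chosen after seeing the data. The ratio step was tested on simulated data. Software was biopython 1.88, matplotlib 3.10.9, scipy 1.17.1, pandas 2.3.3 and numpy 2.4.6 under Python 3.11.15.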

Additional observations from a re-analysis of the deposited data

How the results depend on the processing

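The median log2 ratio of the autophagy genes, 0.042 as reported, ran from -0.16 to 0.86 over the settings. It was above that of all genes with the median of CPM per cell (0.86, against 0.73). The same held in cells with Y-linked reads (0.20, against 0.17) and at a minimum of 50 CPM (0.26, against 0.19). In the other settings it was below that of all genes. It was 0.057 with the mean over cells, 0.018 with totals without mitochondrial genes, 0.21 without the cells with the fewest genes, 0.22 with no minimum level, 0.26 at a minimum of 50 CPM and 0.11 without cells with supporting cell or glia reads. It was 0.33 without the highest cell of each gene, 0.35 in cells with Xist reads, 0.20 in cells with Y-linked reads and 0.86 with the median of CPM per cell, which 22 members allow. It was below 0 with TMM factors (-0.15), median-of-ratios scaling (-0.16), totals without the 10 most abundant genes (-0.016) and thinned cells (-0.042). The number at least 2-fold higher, 9 as reported, was 15 without the highest cell of each gene (34.9%, against 35% of all genes) and 18 in cells with Xist reads (40.9%, against 40.7%). With the median of CPM per cell the share higher was 45.5%, against 31.3% of all genes. It was also above that of all genes with the mean over cells (25%, against 23.6%) and at 50 CPM (27.6%, against 20.5%). It was below with TMM factors (15.9%, against 22.3%) and with no minimum level (21.3%, against 42.6%), among other settings. The number at least 2-fold lower, 4 as reported, was 2 with the median of CPM per cell (9.09%, against 6.72%) and 8 in cells with Y-linked reads (18.2%, against 20.5%). At 1.5-fold, 16 were higher (36.4%, against 37.7%) and 8 lower (18.2%, against 22.2%). The cause was not tested.

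Of 152 ratios of the 13 members past 2-fold under these settings, 0 changed sign and 11 came under 2-fold. These 13 were chosen at 2-fold in the same cells, and every setting uses those cells or part of them. TMM factors and median-of-ratios scaling shift every log2 ratio alike, by -0.19 and -0.20, and could not change a sign here. The kept signs are therefore no independent support. The 7 members past 2-fold in every setting that gave them a value were Atg7, Atg10, Atg12, Map1lc3a, Gabarapl1, Rptor and Lamp2. No paired analysis was possible because cell numbers name no shared animal or batch and no test was run. The lowest depth was 4677682 reads in a cell, and no interval given covers differences between mice, since no animal is named.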
